A study of Mus musculus with 12 samples.

Results

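The 4 genes of 1 signalling loop were followed in primary bone marrow stroma: the cytokine genes Tnf and Il1b, which switch NF-kB signalling on, and the inhibitor genes Tnfaip3 and Nfkbia, which switch it off. They were taken as every probe set whose platform annotation gave 1 symbol and that symbol was one of the 4. This gave 9 probe sets (Tnf 1, Il1b 1, Tnfaip3 2, Nfkbia 5) of 3109 tested, and 4 genes of 1974. The stroma came from Crebbp+/- mice, Ep300+/- mice and Wild-type mice, with 4 arrays per genotype and 12 in all, which the labels call biological replicates. All mice were C57BL/6 and 3 to 4 months old, and all marrow was plated for 2 weeks in the culture medium M5300. All 3 genotypes, Wild-type included, received irradiation of the adherent layer (1500 cGy) and a change of medium, and no unirradiated stroma was analysed here. The sources used here do not give the kind of mutant allele or how many mice or cultures stand behind an array. Crebbp and Ep300 encode the related histone acetyltransferases CBP and p300, which act as transcriptional coactivators.

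NF-kB is a family of transcription factors held in the cytoplasm by inhibitor proteins of the IkB family. Binding of tumour necrosis factor (the product of Tnf) or interleukin-1 beta (the product of Il1b) to its receptor leads to phosphorylation and loss of the inhibitor, and NF-kB then enters the nucleus. Among the genes it turns on are Tnf and Il1b themselves and genes for its own inhibitors: Nfkbia encodes IkB-alpha, which takes NF-kB back out of the nucleus, and Tnfaip3 encodes A20, a ubiquitin-editing enzyme that damps signalling below the receptors. In marrow the cytokines come mainly from macrophages, and stromal and endothelial cells respond to them.

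The stretch of 250 bases upstream of the annotated start site is shown for each gene, because these 4 promoters belong to the genes whose levels moved together across the arrays. The sequences are RefSeq's for GRCm38.p6, all 4 genes lie on the minus strand, and each is written 5′ to 3′ in the direction of transcription. Capitals mark a match, on either strand, to the 10-base NF-kB consensus or to the TATA box TATAAA.
Tnf promoter, chr17:35202008-35202257, minus strand: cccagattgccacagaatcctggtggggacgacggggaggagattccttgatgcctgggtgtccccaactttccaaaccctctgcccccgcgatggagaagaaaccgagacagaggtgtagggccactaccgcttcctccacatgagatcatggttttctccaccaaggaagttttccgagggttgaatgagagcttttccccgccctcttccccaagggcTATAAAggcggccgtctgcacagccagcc
Il1b promoter, chr2:129371140-129371389, minus strand: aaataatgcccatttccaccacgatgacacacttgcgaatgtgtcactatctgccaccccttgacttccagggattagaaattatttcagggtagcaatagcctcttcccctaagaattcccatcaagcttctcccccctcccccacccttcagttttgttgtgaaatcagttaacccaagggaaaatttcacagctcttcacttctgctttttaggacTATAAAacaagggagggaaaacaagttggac
Tnfaip3 promoter, chr10:19015411-19015660, minus strand: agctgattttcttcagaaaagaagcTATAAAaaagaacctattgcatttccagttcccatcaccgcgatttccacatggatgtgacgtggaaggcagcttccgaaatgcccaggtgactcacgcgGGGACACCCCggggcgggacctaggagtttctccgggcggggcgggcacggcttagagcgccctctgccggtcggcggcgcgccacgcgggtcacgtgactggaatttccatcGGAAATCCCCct
Nfkbia promoter, chr12:55492648-55492897, minus strand: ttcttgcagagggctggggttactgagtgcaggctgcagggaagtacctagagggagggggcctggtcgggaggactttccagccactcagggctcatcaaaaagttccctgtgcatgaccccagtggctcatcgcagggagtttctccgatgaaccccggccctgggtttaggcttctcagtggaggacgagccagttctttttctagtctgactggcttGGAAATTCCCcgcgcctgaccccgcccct
Both inhibitor promoters held the NF-kB consensus: Tnfaip3 at 2 positions (bases -125 to -116 and -12 to -3 from the start site) and Nfkbia at 1 (bases -29 to -20). The Tnf and Il1b windows held TATAAA at bases -29 to -24 and -31 to -26 and no match to the consensus in these 250 bases. The Tnfaip3 window also held TATAAA, at bases -225 to -220. A second annotated start of Tnfaip3 had neither motif. Of 32851 promoter windows of this length, 7.25% held the consensus and 12.4% held TATAAA on either strand. A match is a description of the letters and not evidence of binding.

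On every array the stroma gene Cxcl12, which encodes a chemokine made by marrow reticular cells, was at 12.56 or above on the log2 scale, with either of its probe sets. It was 1 of 11 measured markers of reticular stroma, of 17 listed. Their mean was 9.50 to 10.42 on Crebbp+/- arrays, 8.86 to 10.01 on Ep300+/- arrays and 9.38 to 10.29 on Wild-type arrays. Not all were high: Lepr was at 4.85 to 9.89 and Col1a2 at 4.08 to 7.59 over the 12 arrays. Crebbp was at 7.67 to 7.88 on Crebbp+/- arrays, against 8.48 to 8.73 on Ep300+/- arrays and 8.45 to 8.59 on Wild-type arrays, so its level went with the labels. Ep300 had no probe set among those analysed here. Array medians were 7.98 to 8.43. Of 24 macrophage markers listed, 7 were measured, and of 14 endothelial markers 12 were. The granulocyte list was measured by Mmp9 alone, the mast cell list by Kit alone, and no dendritic or lymphoid marker was measured. All values are log2 levels made with GCRMA, a method that corrects background and normalises between Affymetrix arrays. They are relative, so differences within a probe set can be read and levels of different probe sets cannot be set against each other. In whole cultures, fewer cells of a type and less RNA per cell cannot be told apart. The arrays Crebbp+/- 3 and Ep300+/- 3 were the highest of their genotype for every probe set of the cytokine and inhibitor genes. Estimates against Wild-type, for the probe set of highest mean of each gene, are given with and without them. So are Pearson's correlations between these genes. Slopes on Tnf, correlations between probe sets of a gene and correlations with other genes are given over all 12 arrays only.

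Tnf was measured by probe set 1419607_at. Its log2 level was 9.80, 8.84, 14.38 and 8.65 on Crebbp+/- arrays 1 to 4, 9.44, 12.29, 14.36 and 9.21 on Ep300+/- arrays 1 to 4, and 7.76, 8.86, 9.03 and 8.21 on Wild-type arrays 1 to 4. The 4 Ep300+/- arrays were all above the highest Wild-type array, by far the most on arrays 3 and 2, while 2 of the 4 Crebbp+/- arrays lay within the Wild-type range. The means were 10.42 ± 2.69 in Crebbp+/-, 11.32 ± 2.46 in Ep300+/- and 8.47 ± 0.59 in Wild-type stroma (SD, n = 4 each). Over the Wild-type mean, Tnf was 60.1-fold higher on array Crebbp+/- 3, 59.6-fold on Ep300+/- 3 and 14.1-fold on Ep300+/- 2. On the other 5 heterozygous arrays it was between 1.14 and 2.52-fold.

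Il1b, measured by 1449399_a_at, was at 10.03, 7.20, 13.83 and 5.24 on Crebbp+/- arrays, 6.98, 10.76, 13.94 and 6.18 on Ep300+/- arrays and 5.84, 5.33, 6.67 and 4.49 on Wild-type arrays. The same 3 heterozygous arrays were highest, followed by Crebbp+/- 1, and the lowest heterozygous arrays lay inside the Wild-type range in both genotypes. Means were 9.07 ± 3.73 in Crebbp+/-, 9.46 ± 3.59 in Ep300+/- and 5.58 ± 0.91 in Wild-type stroma. The Wild-type values lie low on this scale and may be background, so the size of an Il1b fold is uncertain. Against the Wild-type mean it came to 304-fold on Crebbp+/- 3, 329-fold on Ep300+/- 3, 36.2-fold on Ep300+/- 2 and 21.8-fold on Crebbp+/- 1.

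**Figure D1:**
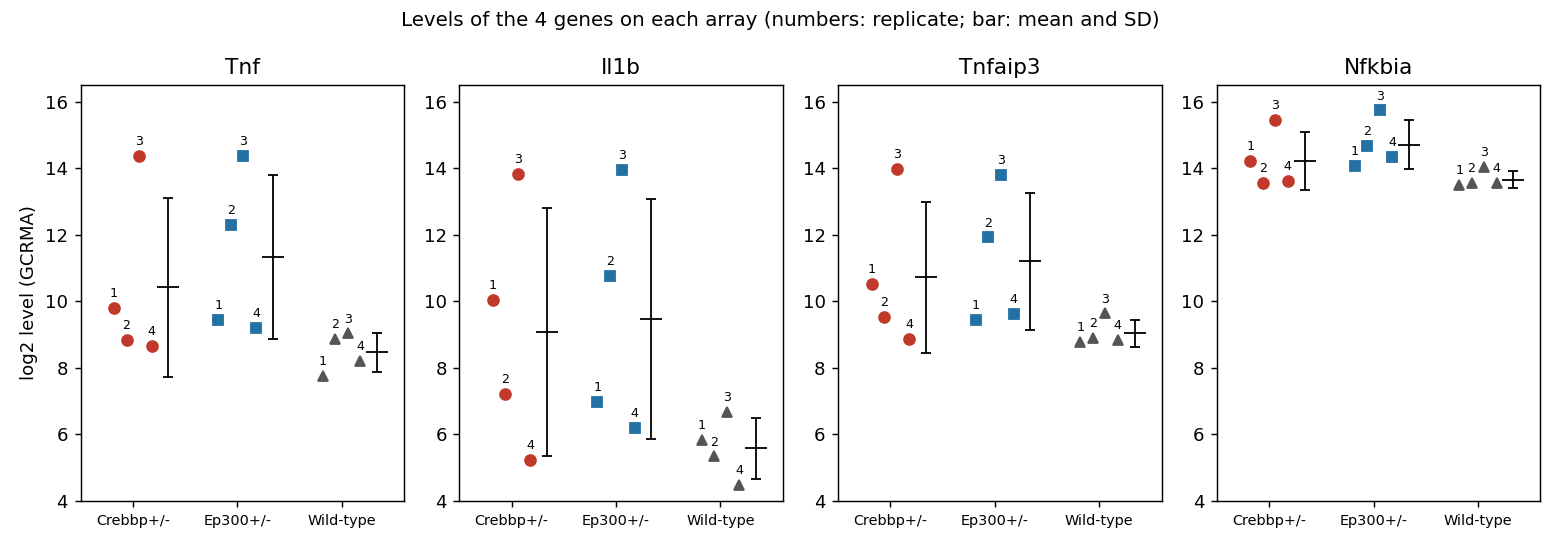
Log2 level (GCRMA, vertical axis) of Tnf, Il1b, Tnfaip3 and Nfkbia, each by its probe set of highest mean, on every array of Crebbp+/-, Ep300+/- and Wild-type stroma. Points carry the replicate number and bars give the mean and SD of 4 arrays. Array 3 is the highest point of each genotype in every panel, and the Tnf values of Ep300+/- stroma (9.21 to 14.36) all lie above those of Wild-type stroma (7.76 to 9.03).

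Tnfaip3 had 2 probe sets. The one of higher mean, 1433699_at, was at 10.52, 9.52, 13.96 and 8.86 on Crebbp+/- arrays, 9.45, 11.92, 13.79 and 9.63 on Ep300+/- arrays and 8.77, 8.89, 9.63 and 8.84 on Wild-type arrays. Arrays Crebbp+/- 3, Ep300+/- 3 and Ep300+/- 2 were again highest, at 30.6, 27.1 and 7.38 times the Wild-type mean, and both heterozygous groups overlapped the Wild-type range. Its means were 10.72 ± 2.27 in Crebbp+/-, 11.20 ± 2.06 in Ep300+/- and 9.03 ± 0.40 in Wild-type stroma. The second probe set, 1450829_at, had means of 7.26 ± 2.47, 7.39 ± 2.66 and 5.01 ± 0.23 in the same order. Its values followed the first closely (r = 0.989 over 12 arrays).

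Nfkbia, the gene of IkB-alpha, had 5 probe sets. Its probe set of highest mean, 1438157_s_at, was at 14.22, 13.55, 15.44 and 13.62 on Crebbp+/- arrays, 14.07, 14.68, 15.73 and 14.34 on Ep300+/- arrays and 13.49, 13.54, 14.02 and 13.57 on Wild-type arrays. All 4 Ep300+/- arrays were above the highest Wild-type array, and array 3 was highest within each genotype. The means were 14.21 ± 0.87 in Crebbp+/-, 14.71 ± 0.73 in Ep300+/- and 13.66 ± 0.25 in Wild-type stroma, and the 2 most displaced arrays were 3.44-fold (Crebbp+/- 3) and 4.21-fold (Ep300+/- 3) above the Wild-type mean. These 2 values were the highest of all 3109 probe sets on their arrays, as was the lower value of 14.34 on Ep300+/- 4. Whether the top of the measuring range limited any of these values was not tested.

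Of the other 4 Nfkbia probe sets, 3 had the same arrays at the top, Ep300+/- 3, Crebbp+/- 3 and Ep300+/- 2. Probe set 1449731_s_at was at 12.54, 11.62, 14.39 and 11.51 on Crebbp+/- arrays, 12.34, 13.38, 14.57 and 11.99 on Ep300+/- arrays and 11.44, 11.37, 11.98 and 11.39 on Wild-type arrays. Arrays Crebbp+/- 3 and Ep300+/- 3 were 7.18-fold and 8.13-fold above the Wild-type mean here, a larger difference than the first probe set gave. Probe set 1448306_at placed the same arrays 7.14-fold and 8.03-fold above that mean, and 1420088_at placed them 2.75-fold and 2.77-fold above it. The 5 Nfkbia probe sets correlated with each other at r = 0.739 to 0.993 over 12 arrays. The pairs with 1420089_at were the lowest, and on that probe set Wild-type array 3 (8.76) was close to Crebbp+/- 3 (9.21) and Ep300+/- 3 (9.19). The annotation used here does not say which transcripts each probe set reads.

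**Figure D2:**
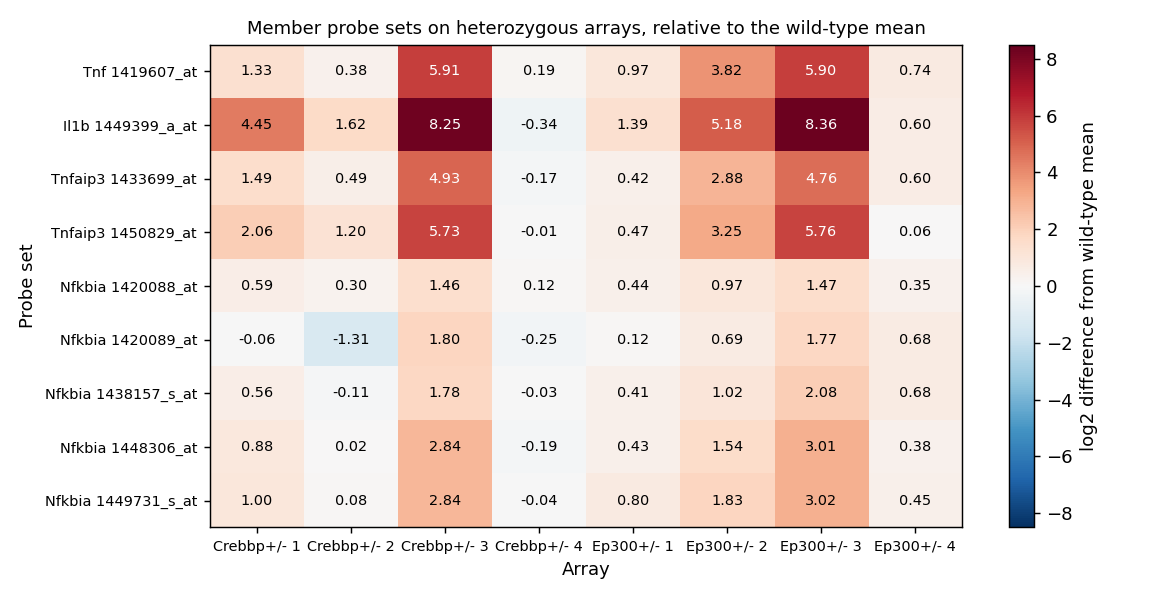
Log2 difference from the Wild-type mean (colour and printed number) for the 9 probe sets, in rows, on the 8 heterozygous arrays, in columns. Arrays Crebbp+/- 3, Ep300+/- 3 and Ep300+/- 2 are high in every row, from 8.36 for Il1b on Ep300+/- 3 down to 0.69 for Nfkbia 1420089_at on Ep300+/- 2.

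Across the 9 probe sets, every value of array Crebbp+/- 3 and of Ep300+/- 3 was above all 4 Wild-type values. So were 8 of 9 on Ep300+/- 2 and on Crebbp+/- 1, 6 on Ep300+/- 1, 4 on Ep300+/- 4, 2 on Crebbp+/- 2 and 0 on Crebbp+/- 4. Over all 3109 probe sets the share above every Wild-type value was 33.8% on Crebbp+/- 3, 26.3% on Ep300+/- 3, 21.4% on Ep300+/- 2, 35.1% on Crebbp+/- 1, 15.6% on Ep300+/- 1, 17.7% on Ep300+/- 4, 39.5% on Crebbp+/- 2 and 20.6% on Crebbp+/- 4. The members thus did not follow the overall share: Crebbp+/- 2 had the highest overall share and only 2 member probe sets above Wild-type.

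The array numbered 3 was the highest of its genotype for 9 of 9 member probe sets in Crebbp+/-, in Ep300+/- and in Wild-type stroma. Over all probe sets the array numbered 3 was highest for 30.4%, 34.9% and 29.2% in the same order of genotypes. The labels do not say what a replicate number shares. The residual SD of the fit pools the spread within the 3 genotypes. That of Il1b (3.04 log2 units) ranked 3 of 3109, and that of Tnf (2.13) ranked 18. Those of Tnfaip3 (2.10 and 1.79) ranked 21 and 36, against a median over all probe sets of 0.53. This spread lay mainly in heterozygous stroma. In Wild-type stroma the SD was 0.59 for Tnf, 0.91 for Il1b and 0.40 for Tnfaip3 1433699_at. In Crebbp+/- stroma these were 2.69, 3.73 and 2.27, and in Ep300+/- stroma 2.46, 3.59 and 2.06. The residual SD of the Nfkbia probe sets was 0.47 to 1.09, with ranks from 275 to 1855.

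In Crebbp+/- against Wild-type stroma, 0 of the 9 member probe sets passed an adjusted p of 0.05 in limma (Benjamini-Hochberg over all 3109 probe sets), where 6.18% of all probe sets did. None of the 9 had an unadjusted p under 0.05, against 26.7% of all probe sets. None had groups that did not overlap with Crebbp+/- higher, against 10.4% of all. The estimate was 1.95 for Tnf (SE 1.28, adjusted p = 0.343), 3.49 for Il1b (SE 1.82, adjusted p = 0.232), 1.69 for Tnfaip3 1433699_at (SE 1.08, adjusted p = 0.331) and 0.55 for Nfkbia 1438157_s_at (SE 0.44, adjusted p = 0.447), in log2 units. The second Tnfaip3 probe set, whose Wild-type values may be background, gave 2.25 and the other Nfkbia probe sets gave 0.62, 0.04, 0.89 and 0.97. All 9 estimates were above 0, with a median of 0.97 against 0.24 over all probe sets tested. Il1b and the second Tnfaip3 probe set passed the level filter of the deposited values only with heterozygous arrays counted. Their direction is therefore not separate support.

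The 95% intervals reached from -0.83 to 4.73 for Tnf, -0.44 to 7.43 for Il1b, -0.65 to 4.02 for Tnfaip3 and -0.41 to 1.51 for Nfkbia, so neither no change nor a large increase lay outside them. Without array Crebbp+/- 3 the estimates were 0.63 for Tnf, 1.91 for Il1b, 0.60 for Tnfaip3 and 0.14 for Nfkbia. Samples of the same replicate number deviated together between these genotypes, and with the replicate number as a block Il1b passed (limma, adjusted p = 0.0496, SE 1.14, same estimate), as did 17.5% of all probe sets in the higher direction. No other member passed with the block. Crebbp+/- arrays 1 and 3 had Eif2s3y, a gene of the Y chromosome, at 2.73 and 2.69, against 8.41 or more on the other 10 arrays. Without these 2 arrays the estimates were 0.28 for Tnf, 0.64 for Il1b, 0.16 for Tnfaip3 and -0.07 for Nfkbia, and the part of what sets these arrays apart in the result was not tested.

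In Ep300+/- against Wild-type stroma, 0 of 9 passed, as did 0% of all 3109 probe sets, with adjusted p of 0.965 for each of the 9 in limma. At an unadjusted p under 0.05 there were 4 of 9, all higher in Ep300+/-, where 1.93% of all probe sets were called in that direction. These 4 were Tnf and Nfkbia 1420088_at, 1438157_s_at and 1449731_s_at. The same 4 had every Ep300+/- array above every Wild-type array, which 1.99% of all probe sets had. The exact two-sided permutation p of each was 0.0286, the smallest that 4 against 4 arrays allow, and 0.689 after adjustment over the table.

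The Ep300+/- estimates were 2.86 for Tnf (SE 1.28, 95% interval 0.08 to 5.64), 3.88 for Il1b (SE 1.82, -0.05 to 7.82), 2.17 for Tnfaip3 1433699_at (SE 1.08, -0.17 to 4.50) and 1.05 for Nfkbia 1438157_s_at (SE 0.44, 0.09 to 2.01). As folds of log2 means these were 7.24, 14.8, 4.49 and 2.07. The second Tnfaip3 probe set, with the same limit on its Wild-type values, gave 2.38, and the other Nfkbia probe sets gave 0.81, 0.82, 1.34 and 1.53. The median of the 9 was 1.53, against 0.05 over all probe sets. The limit from the level filter on Il1b and the second Tnfaip3 probe set holds here too. Without array Ep300+/- 3 the estimates were 1.84 for Tnf, 2.39 for Il1b, 1.30 for Tnfaip3 and 0.71 for Nfkbia, all still above 0 and none past the adjusted threshold. With the replicate number as a block none of the 9 passed either (limma, adjusted p 0.209 to 0.409).

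Crebbp+/- and Ep300+/- stroma were then compared with each other, since the genes encode related coactivators. None of the 9 probe sets passed in limma, where 6.4% of all probe sets did, and none had an unadjusted p under 0.05, where 25.2% did. Crebbp+/- minus Ep300+/- was -0.91 for Tnf (SE 1.28, 95% interval -3.68 to 1.87), -0.39 for Il1b (-4.33 to 3.55), -0.48 for Tnfaip3 (-2.82 to 1.86) and -0.50 for Nfkbia (-1.46 to 0.46). The adjusted p in limma were 0.527 to 0.966. These intervals are wide, above all that of Il1b, and do not show that the genotypes were alike. Both heterozygous comparisons with Wild-type use the same 4 Wild-type arrays.

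**Figure D3:**
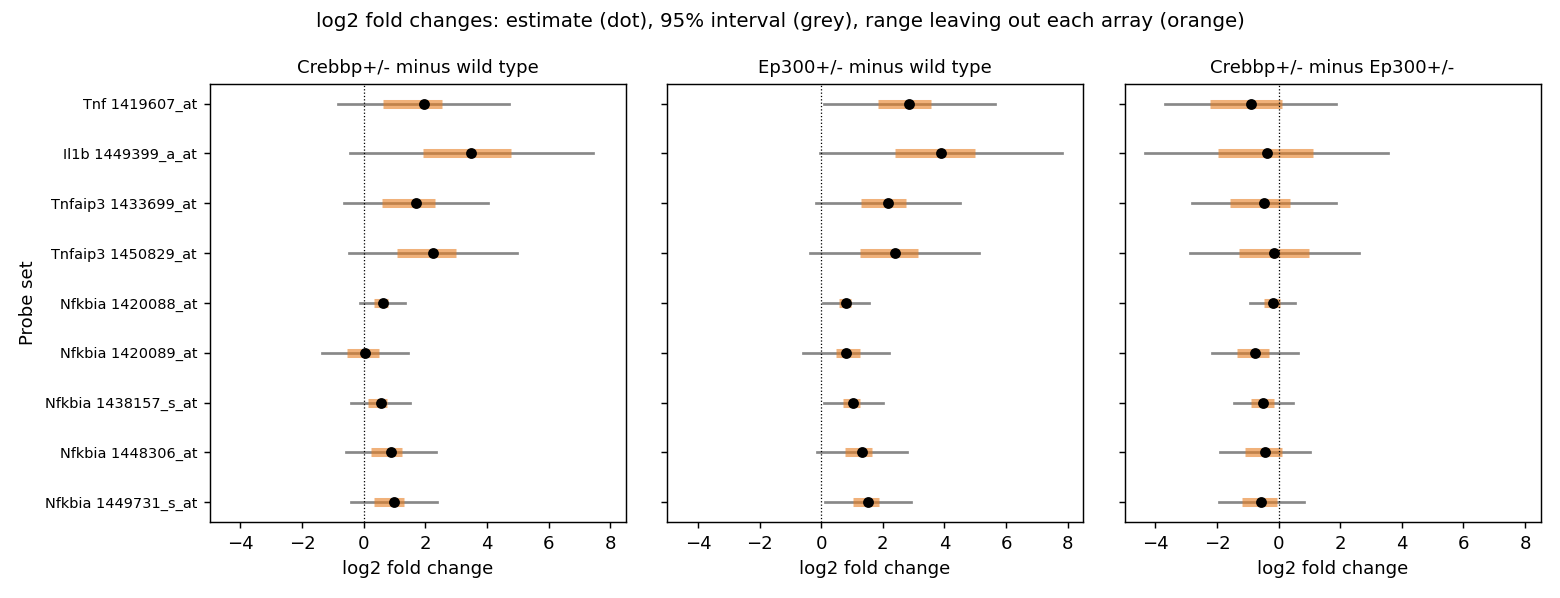
Log2 fold change (horizontal axis) of each member probe set in Crebbp+/- minus wild type, Ep300+/- minus wild type and Crebbp+/- minus Ep300+/-. Dots are limma estimates, grey lines 95% intervals and orange lines the range when each array is left out in turn. Il1b has the widest interval, -0.44 to 7.43 in the first panel, and every estimate lies above 0 in the first and second panels.

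The cytokine and inhibitor genes moved together from array to array. Over 12 arrays Tnf and Tnfaip3 had Pearson's r = 0.989 and Spearman's rho = 0.937, Il1b and Tnfaip3 had r = 0.978 and rho = 0.895, and Tnf and Il1b had r = 0.954 and rho = 0.867. Nfkbia had r = 0.962 with Tnf (rho = 0.909), 0.929 with Il1b (rho = 0.755) and 0.964 with Tnfaip3 (rho = 0.874). Permutation tests of the 6 pairs with 100000 resamples gave two-sided p of 1e-05, the smallest they can give, to 0.00014 for r, or 2e-05 to 0.00014 after Benjamini-Hochberg adjustment over the pairs. For rho the adjusted p were 0.00012 to 0.00671. The 6 pairs share arrays and RNA, and the genes were chosen with results of these data known, so these p-values are not independent evidence.

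Without arrays Crebbp+/- 3 and Ep300+/- 3, the 2 farthest from the median of Tnf, r over the other 10 arrays was 0.954 for Tnf and Tnfaip3, 0.938 for Il1b and Tnfaip3, 0.846 for Tnf and Il1b, 0.856 for Tnf and Nfkbia, 0.764 for Il1b and Nfkbia, and 0.870 for Tnfaip3 and Nfkbia. The permutation p of these were 0.00044 to 0.00887 after adjustment. Deviations from the genotype means, pooled over the 3 genotypes, gave r of 0.935 to 0.988 over 12 arrays and 0.740 to 0.939 without those 2 arrays, a range computed after seeing the data. With 4 arrays in a genotype, no correlation is given within a single genotype.

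The slopes on Tnf differed between probe sets. For each log2 unit of Tnf, Il1b changed by 1.37, Tnfaip3 by 0.81 and 0.94 with its 2 probe sets, and Nfkbia by 0.24 to 0.49 with its 5. These are slopes of log2 differences on GCRMA values, whose range differs between probe sets, and not amounts of RNA.

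**Figure D4:**
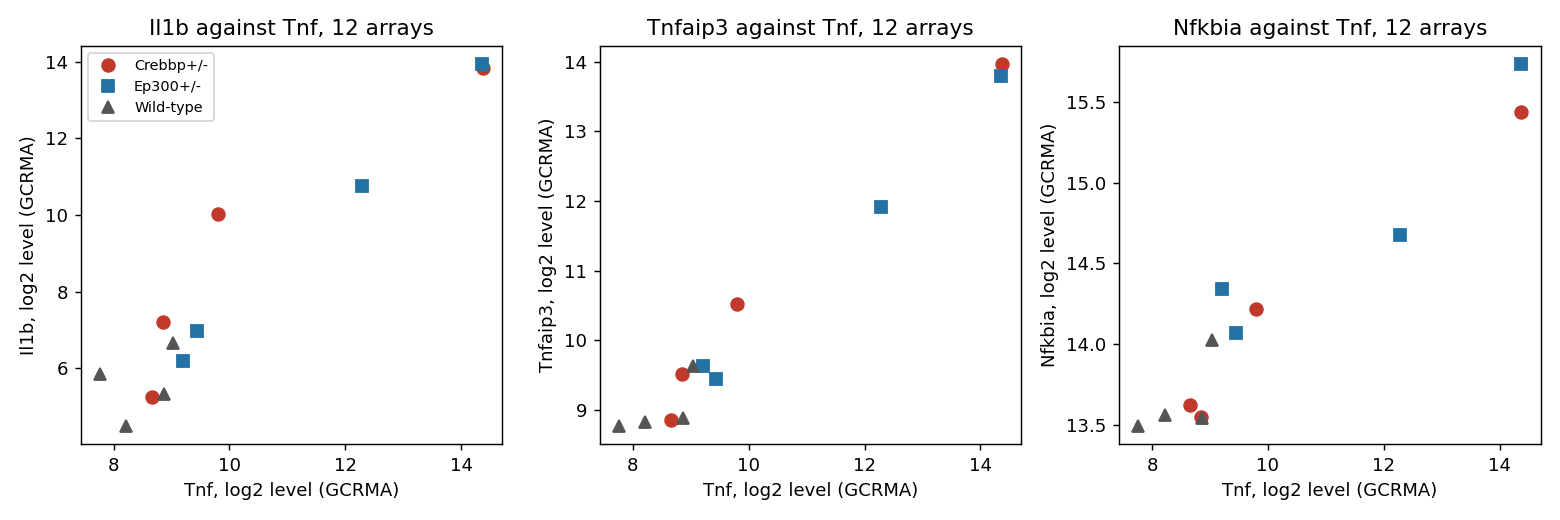
Log2 level (GCRMA) of Il1b, Tnfaip3 and Nfkbia (vertical axes) against that of Tnf (horizontal axis) on 12 arrays, 1 point per array, marked by genotype. Arrays Crebbp+/- 3 and Ep300+/- 3 share the upper right corner at a Tnf level of 14.38 and 14.36, and Pearson's r in the 3 panels is 0.954, 0.989 and 0.962.

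The genes most like the 4 members were named by Pearson's r over 12 arrays among 1970 other genes, each by its probe set of highest mean. With the mean of the scaled members, Nfkbiz, an IkB-family protein of the nucleus, had r = 0.992, Tnfsf9, the ligand 4-1BBL, 0.990, Clec4e, the lectin receptor Mincle, 0.989, Ppp1r15a (GADD34), which brings a phosphatase to eIF2-alpha, 0.988, and Rasgef1b, a guanine nucleotide exchange factor, 0.987. Then came Irf1, a transcription factor of interferon responses, with 0.983, Cxcl2, a neutrophil chemokine, with 0.983, Kdm6b, a histone H3 demethylase, with 0.982, Icam1, a leukocyte adhesion molecule, with 0.981 and Csrnp1, a nuclear protein, with 0.980. The lowest were Gclm, a subunit of the enzyme that starts glutathione synthesis, with -0.883, Crabp2, a retinoic acid carrier, with -0.868, Trib3, a pseudokinase of the stress response, with -0.855, Paqr7, a membrane progestin receptor, with -0.847 and Tpp2, a peptidase, with -0.846. In all, 77 genes had r over 0.9 and 0 had r under -0.9, with a median of 0.01.

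For single members the leading genes overlapped. Tnf was closest to Tnfsf9 (0.991), Nfkbiz (0.990), Ppp1r15a (0.983), Cxcl2 (0.979) and Icam1 (0.976). Il1b was closest to Ccrl2 (0.985), an atypical chemoattractant receptor, Clec4e (0.982), Cxcl2 (0.981), Cd83 (0.980), an activation marker, and Pim1 (0.977), a kinase. Tnfaip3 was closest to Tnfsf9 (0.993), Ppp1r15a (0.992), Nfkbiz (0.991), Clec4e (0.988) and Kdm6b (0.985), and Nfkbia to Rasgef1b (0.982), Tnfaip2 (0.979), Klf10 (0.979), Cd14 (0.975) and Nfkbiz (0.975). These correlations are descriptions over the same 12 arrays. Of the 10 genes most like the mean of the 4, 7 were in the promoter table and 2 of them, Irf1 and Cxcl2, held the NF-kB consensus in 250 bases, against 8.23% of 27025 genes.

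Other genes of the pathway were counted by role from lists of 118 genes, of which 43 were measured. Of the ligands and cytokines, 5 of 15 were measured and 0 passed in any of the 3 comparisons without the block, with medians of 1.95 in Crebbp+/- minus Wild-type and 2.86 in Ep300+/- minus Wild-type. Tnfsf9 was at 8.98, 7.31, 13.88 and 6.94 on Crebbp+/- arrays, 7.38, 11.34, 14.14 and 7.07 on Ep300+/- arrays and 6.19 to 7.08 on Wild-type arrays, with the same 3 arrays at the top. Tnfsf11, the ligand RANKL, did not share that order, with 6.88 to 8.01 on Crebbp+/- arrays, 5.72 to 7.03 on Ep300+/- arrays and 6.14 to 7.45 on Wild-type arrays. With the replicate block Tnfsf11 passed as higher in Crebbp+/- than in Ep300+/- stroma (limma, adjusted p = 0.0386), where 19.1% of all probe sets did.

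Of the receptors and adaptors, 4 of 27 were measured and 0 passed in any comparison without the block. The pattern receptors Tlr2 and Cd14 were highest on Crebbp+/- 3 (13.19 and 13.48) and Ep300+/- 3 (13.37 and 13.70), against 10.75 to 11.94 and 10.58 to 11.23 on Wild-type arrays. The TNF receptor gene Tnfrsf1b was at 7.62 to 8.76 on Crebbp+/- arrays, 6.13 to 7.67 on Ep300+/- arrays and 6.70 to 8.14 on Wild-type arrays, with every Ep300+/- array below the highest Wild-type array. With the block it passed as higher in Crebbp+/- than in Ep300+/- stroma (limma, adjusted p = 0.0159). Ly96, which encodes the TLR4 partner MD-2, was inside the Wild-type range of 3.85 to 8.02 on all 8 heterozygous arrays. Of the kinases and NF-kB subunits, 2 of 12 were measured and 0 passed without the block: Map3k8, a kinase below the receptors, reached 9.87 on Crebbp+/- 3 and 10.13 on Ep300+/- 3, against 7.66 to 8.37 on Wild-type arrays, and Nfkb2 reached 10.07 and 9.79, against 8.61 to 9.40. With the block Map3k8 passed as higher in Crebbp+/- than in Wild-type stroma (limma, adjusted p = 0.0403).

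Of the feedback inhibitors, 11 of 23 were measured, Tnfaip3 and Nfkbia among them, and 0 passed in any comparison without the block. Their medians were 0.77 in Crebbp+/- minus Wild-type, 1.02 in Ep300+/- minus Wild-type and -0.48 in Crebbp+/- minus Ep300+/-, against 0.24, 0.05 and 0.03 over all probe sets. Nfkbid, a nuclear IkB protein, was at 7.89 to 11.76 on Crebbp+/- arrays, 9.50 to 11.87 on Ep300+/- arrays and 8.14 to 9.47 on Wild-type arrays. Its Ep300+/- and Wild-type values narrowly did not overlap (9.50 against 9.47), as for 1.99% of all probe sets. Its adjusted p in limma was 0.965 in that comparison. Not every inhibitor shared the pattern. Cyld, a deubiquitinase that damps NF-kB, was at 6.56 to 7.02 on Crebbp+/- arrays, 7.22 to 7.80 on Ep300+/- arrays and 7.07 to 7.62 on Wild-type arrays, and its r with the mean of the members was -0.253. Il1rn, the interleukin-1 receptor antagonist, was at 11.45 to 12.57 on Crebbp+/- arrays, 10.41 to 11.85 on Ep300+/- arrays and 11.06 to 11.72 on Wild-type arrays, with r = 0.451. With the replicate block Il1rn was higher and Cyld lower in Crebbp+/- than in Wild-type stroma (limma, adjusted p = 0.0386 and 0.0489), and likewise than in Ep300+/- stroma (0.0219 and 0.0315).

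The inflammasome genes Nlrp3 and Casp4 were the 2 of 9 measured in their list, and neither passed. Nlrp3 was at 7.26, 6.79, 10.70 and 6.87 on Crebbp+/- arrays, 7.16, 8.14, 11.06 and 7.29 on Ep300+/- arrays and 6.75 to 7.21 on Wild-type arrays, and Casp4 was at 8.31 to 10.25, 7.88 to 10.21 and 7.73 to 8.24 in the same order. Arrays Crebbp+/- 3 and Ep300+/- 3 were highest for both genes.

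Of the induced NF-kB targets, 19 of 32 were measured. Their medians were 1.39 in Crebbp+/- minus Wild-type and 1.43 in Ep300+/- minus Wild-type. In the first comparison 1 gene passed, in the second 0 and in Crebbp+/- minus Ep300+/- 0. Of all probe sets 6.18%, 0% and 6.4% passed in the same order, so the 1 of 19 is near the share over all. That gene was Selp, P-selectin of endothelium and platelets, with 9.13, 8.64, 9.58 and 8.22 on Crebbp+/- arrays, against 7.39, 7.75, 6.71 and 7.55 on Wild-type arrays. Selp was higher by 1.54 log2 units (SE 0.35, adjusted p = 0.0251 in limma), and did not pass without any 1 of Crebbp+/- arrays 1, 2 or 3 or Wild-type arrays 2, 3 or 4 (adjusted p up to 0.101). The estimate was 1.31 to 1.76 with each array left out in turn. In the fits where Selp did not pass, 5 to 55 of all probe sets passed, against 192 with all arrays. The mean of the 12 endothelial markers was 9.78, 9.41, 9.71 and 7.74 on Crebbp+/- arrays, 6.26 to 7.31 on Ep300+/- arrays and 6.86 to 8.10 on Wild-type arrays, and 8 of the 12 passed in Crebbp+/- minus Wild-type. Their part in the Selp result was not tested. Saa3, an acute-phase protein, was at 8.58 to 11.04 on Crebbp+/- arrays, 7.92 to 11.70 on Ep300+/- arrays and 7.38 to 8.85 on Wild-type arrays. Pde4b, a cAMP phosphodiesterase, was at 7.54 to 10.43, 8.16 to 10.12 and 7.01 to 7.53, and the monocyte chemokine Ccl2 at 10.29 to 12.53, 8.69 to 13.15 and 9.02 to 10.38, in the same order. With the replicate block, 5 of the 19 targets passed as higher in Crebbp+/- than in Wild-type stroma (Selp, Saa3, Pde4b, Irf1 and Gadd45b), where 17.5% of all probe sets did. With the block Selp also passed as higher in Crebbp+/- than in Ep300+/- stroma (adjusted p = 0.0286 in limma, against 0.0502 without it). Without the block the 4 other than Selp had adjusted p of 0.111 to 0.288 in limma.

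**Figure D5:**
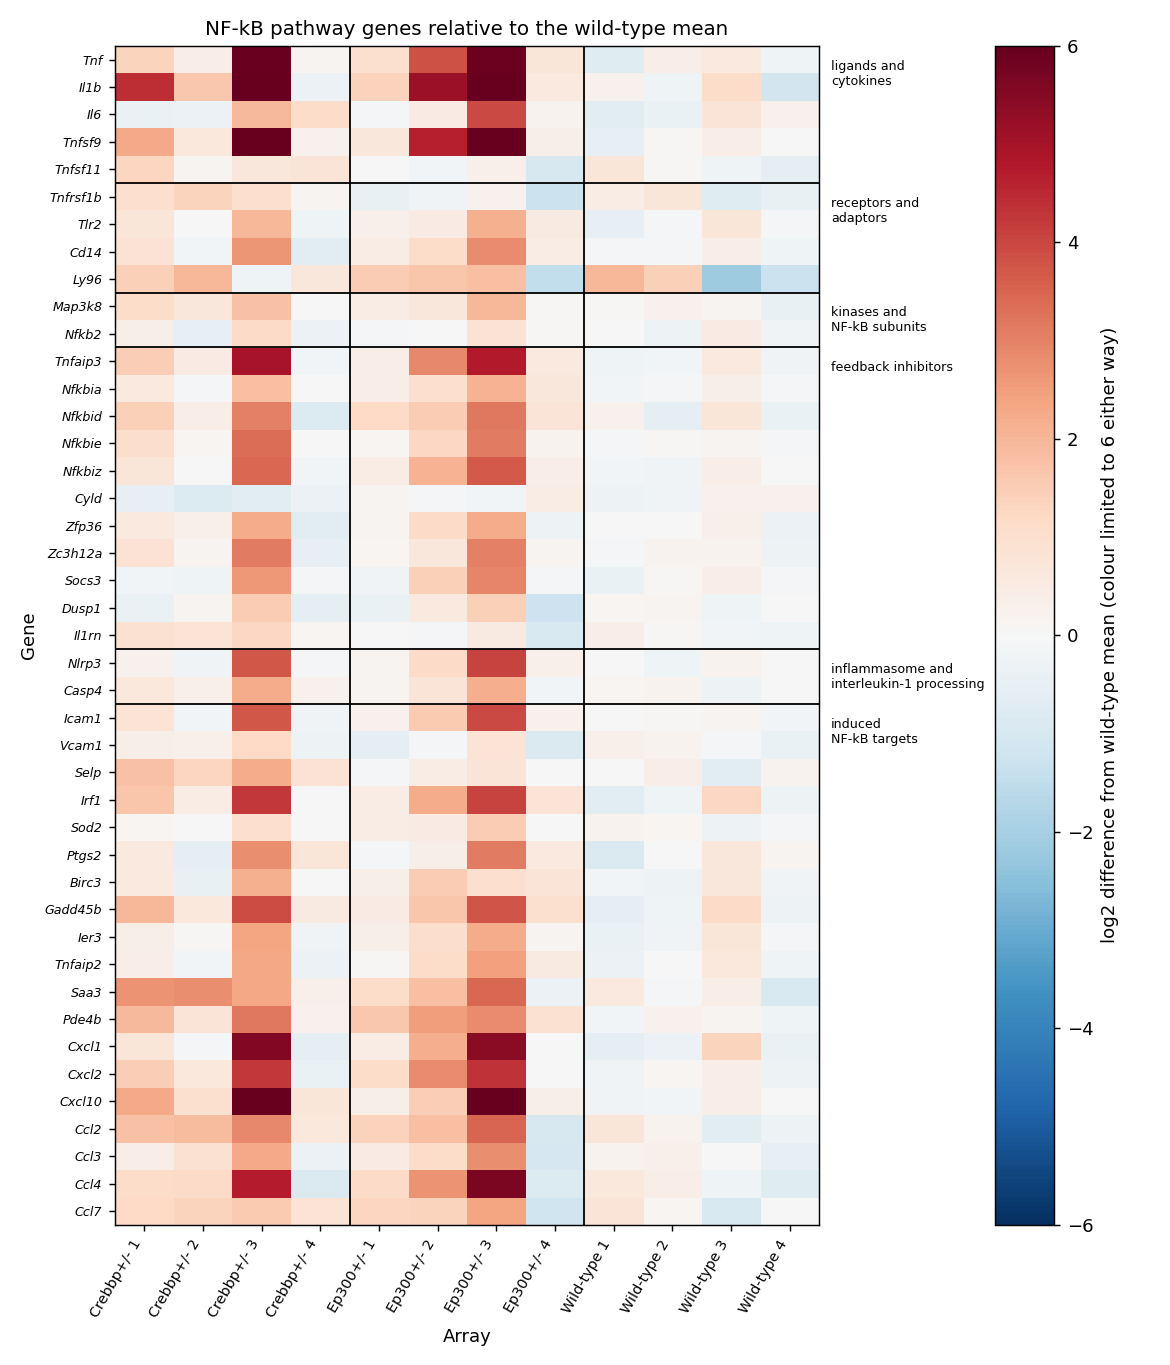
Log2 difference from the Wild-type mean (colour, limited to 6 either way) of the measured NF-kB pathway genes, in rows by role, on the 12 arrays, in columns. Of the 39 genes that are not members, 36 on Crebbp+/- 3, 35 on Ep300+/- 3, 29 on Ep300+/- 2 and 26 on Crebbp+/- 1 lie above all Wild-type arrays.

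Counted by array, 36 of the 39 pathway genes outside the 4 members were above every Wild-type value on Crebbp+/- 3, 35 on Ep300+/- 3, 29 on Ep300+/- 2 and 26 on Crebbp+/- 1, where 33.8%, 26.3%, 21.4% and 35.1% of all probe sets were. On Crebbp+/- 2 there were 15 of 39, against 39.5% of all probe sets, and on Ep300+/- 1 there were 14, against 15.6%. On Crebbp+/- 4 and Ep300+/- 4 there were 8 each, against 20.6% and 17.7%, so on Crebbp+/- 2, Crebbp+/- 4 and Ep300+/- 4 the count was near the overall share. On Crebbp+/- 4, 10 of the 39 were below every Wild-type value, and on Ep300+/- 4 there were 9, against 21.3% and 32.2% of all probe sets. These counts describe single arrays and carry no test.

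Macrophages are a main source of Tnf and Il1b, so their markers were set beside these results. The mean of the 7 measured macrophage markers was 12.46, 12.24, 12.20 and 11.87 on Crebbp+/- arrays, 12.07, 11.91, 12.33 and 11.50 on Ep300+/- arrays and 11.41 to 12.06 on Wild-type arrays. Cd14, 1 of the 7, was also among the genes most like Nfkbia. With all 7, Crebbp+/- 3 and Ep300+/- 3 lay above the Wild-type range, as did Crebbp+/- 1 and 2 and Ep300+/- 1, and Ep300+/- 3 was the highest of its genotype. Cd14 was left out after seeing the data because it moved with Nfkbia. The mean of the other 6 was 12.58, 12.49, 11.99 and 12.15 on Crebbp+/- arrays 1 to 4. It was 12.19, 11.90, 12.10 and 11.53 on Ep300+/- arrays 1 to 4, against 11.44 to 12.27 on Wild-type arrays. Crebbp+/- 1 and 2 thus stayed above the Wild-type range, and the other heterozygous arrays lay inside it. The part of macrophages in the Tnf and Il1b levels was not tested. Without the block, Cd163, a scavenger receptor of macrophages, was the 1 marker of the 7 that passed in Crebbp+/- minus Wild-type, with 1.18 log2 units, where 6.18% of all probe sets passed. With the replicate block Cd163 and Fcgr1 passed as higher (limma, adjusted p = 0.00854 and 0.0393), where 17.5% of all probe sets did. Fcgr1 then also passed as higher in Crebbp+/- than in Ep300+/- stroma (limma, adjusted p = 0.0240), where 19.1% did. None of the 7 passed in Ep300+/- minus Wild-type.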

How the data were processed

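Levels were deposited on the log2 scale and GCRMA made them, per the submitters' processing notes, which give no version. Of 3127 probe sets, 18 controls were left out and 3109 tested. Read from the values, the table keeps probe sets with an interquartile range of 0.5001 or more and 3 or more arrays at or above log2 of 100. Tnfaip3 1450829_at met this rule on level through heterozygous arrays only: Crebbp+/- 1 (7.07), Crebbp+/- 3 (10.74), Ep300+/- 2 (8.26) and Ep300+/- 3 (10.77). For Il1b the only Wild-type array at that level was Wild-type 3 (6.67), so Il1b also needed heterozygous arrays to meet it. Genes without a probe set were not analysed here.

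No further normalisation was applied. A single fit over 12 arrays with a mean per genotype was made with limma 3.58.1 in R 4.3.3 (lmFit, eBayes, two-sided, Benjamini-Hochberg over 3109 probe sets). The exact permutation test over arrays used all 70 regroupings. Correlations and counts were made with Python 3.11.15, SciPy 1.17.1 and pandas 2.3.3. In data simulated for the Crebbp+/- and Wild-type contrast (3109 probe sets), limma called 72% of the 2-unit and 17% of the 1-unit log2 changes planted, with 6 false calls. These shares are taken over all changes planted. The residual SD was 1.79 to 3.04 for Tnf, Il1b and Tnfaip3, against a median of 0.53 over all probe sets. The shares therefore do not give the chance of a call for these members.

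Same-numbered arrays of Crebbp+/- and Wild-type correlated in their deviations at 0.448 to 0.603, and those of Crebbp+/- and Ep300+/- at 0.294 to 0.513. The labels do not say what a number shares, so these arrays were judged paired from the correlations alone. The main fit had no block, so its tests and intervals are unpaired. Pairing entered only through the alternative fit with the replicate number as a block. In Crebbp+/- minus Wild-type the block lowered the SE from 1.28 to 0.83 for Tnf and from 1.82 to 1.14 for Il1b. Same-numbered arrays of Ep300+/- and Wild-type correlated at 0.0593 to 0.683 and were not judged paired, although the fit with the block covers them too. The highest correlation between 2 arrays was 0.964.

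Members, gene lists and tests were chosen with earlier results of these data known. Named genes were the members, the 5 genes most like each member, the 10 most and 5 least like their mean, and the 4 of smallest p in each pathway list. The number of arrays limits the precision. Alternatives were quantile normalisation, median centring, a filter on mean level, eBayes with trend, a fit of 2 genotypes, array weights, the replicate block and leaving out arrays.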

Additional observations from a re-analysis of the deposited data

Results flagged for a closer look

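Of 60 groups of 4 arrays examined for an array far from the others, 7 held one. Chance gives about 1 in 20 for independent groups. These groups share arrays and genes that moved together, so the count shows no excess over chance. Wild-type array 3 stood high among the Wild-type arrays for Tnfaip3 1433699_at (9.63), Nfkbia 1438157_s_at (14.02), Nfkbia 1448306_at (12.99) and Nfkbia 1449731_s_at (11.98). In each heterozygous genotype the array numbered 3 was also the highest for these probe sets. Crebbp+/- 3 stood high for the mean of the inflammasome genes Nlrp3 and Casp4 (10.47). Wild-type 1 stood high for the mean of the endothelial markers (8.10), and Crebbp+/- 4 stood low for the mean of the 11 reticular stroma markers (9.50).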

How the results depend on the processing

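The count of member probe sets called was 0 in each of the 3 comparisons, and stayed at 0 under every alternative run except 2 in Crebbp+/- minus Wild-type. There, array weights called 4 (Il1b, Tnfaip3 1450829_at, Nfkbia 1420088_at and 1449731_s_at), although the estimate of the weights stopped before its tolerance was met, and the replicate block called 1 (Il1b, adjusted p = 0.0496 in limma). At an unadjusted p under 0.05 the counts without these settings were 0, 4 and 0. The block changed no other member's call. Leaving out each array in turn kept the count at 0.

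Of 627 values of single probe sets and pairs of genes under alternatives, 592 kept their direction and side of the threshold, 23 changed direction, 5 passed and 7 (all Selp, whose alternatives were added after seeing the data) no longer passed. Nfkbia 1420089_at in Crebbp+/- minus Wild-type was 0.04, and became -0.066 with quantile normalisation, -0.15 with median centring, -0.54 without both heterozygous arrays numbered 3 and -0.78 without the Crebbp+/- arrays of low Eif2s3y, both chosen after seeing the data, with a range of -0.54 to 0.50 over left-out arrays. Without the low-Eif2s3y arrays Nfkbia 1438157_s_at was -0.070 and 1448306_at -0.086, and Selp did not pass (adjusted p = 0.266). In Crebbp+/- minus Ep300+/-, Il1b was 0.39 with array weights. With each array left out, that difference ranged from -1.97 to 1.10 for Il1b, -1.30 to 0.99 for Tnfaip3 1450829_at, -1.56 to 0.39 for Tnfaip3 1433699_at, -2.23 to 0.11 for Tnf, -0.471 to 0.031 for Nfkbia 1420088_at and -1.10 to 0.10 for Nfkbia 1448306_at. The cause was not tested.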
